A study of Mus musculus with 5 samples.

Results

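Of the 22532 genes measured in nuclei of the mouse central amygdala (CeA), 6 encode the pore subunits of T-type calcium channels (Cacna1g, Cacna1h and Cacna1i) or of the hyperpolarization-activated channels Hcn2, Hcn3 and Hcn4. They were chosen by name, and their levels were compared over classes of inhibitory nuclei and between fed and fasted mice. Of 23839 barcodes in the 5 libraries, 7161 nuclei had 500 to 8000 genes and less than 0.8% mitochondrial UMIs (unique molecular identifiers, each a counted RNA molecule) and were kept. Of these, 5053 were inhibitory, with at least 2 UMIs of Gad1 and Gad2 together and at most 1 of Slc17a7 and Slc17a6.

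Libraries fed 1 and fed 2 came from 8-week-old C57BL6 mice with free access to food, and fasted 1 and fasted 2 from mice of the same strain and age after 20 and 21 hours without food. Library fed 3 came from fed Htr2a-Cre mice of 12 weeks that carried AAV-DIO-mCherry, a virus that expresses mCherry only in cells with Cre, and mCherry UMIs (3152) were found in that library alone. The labels of all 5 libraries give C57BL6, and the methods name C57BL/6NRj for wild-type mice and a BAC transgene for Htr2a-Cre. Each library pooled the CeA of 1 male and 1 female mouse, so single mice cannot be told apart. Fed 1 and fasted 1 shared a preparation batch, as did fed 2 and fasted 2. Library fed 3 was prepared separately, so that its genotype, age and batch cannot be told apart.

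The median was 6608 to 16367 UMIs per kept nucleus over the libraries, lowest in fasted 1 and fed 1. Any pair of libraries shared at most 1 barcode among the kept nuclei. The oligodendrocyte genes Mog, Mag and Mobp together were at 6.97 to 15.7 counts per 1e6 UMIs (CPM) in the inhibitory nuclei of the fed libraries and at 25.0 and 35.2 CPM in those of the fasted libraries, against 4585 CPM in oligodendrocytes. The median mitochondrial share was also higher in the fasted libraries (0.317% and 0.237%) than in the fed ones (0.0529% to 0.136%). The part of both in the fasting results was not tested.

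T-type channels open at voltages close to the resting potential and are largely inactivated there, so that a neuron must first be hyperpolarized before they can carry a low-threshold calcium spike with a burst of action potentials on top. HCN channels do the reverse, opening on hyperpolarization and passing an inward cation current that brings the membrane back up, and cyclic AMP shifts the opening of several of them. The pair of currents is known for setting rebound and rhythmic firing in the thalamus and other brain regions. The CeA, whose neurons are mostly inhibitory, has a medial (CeM), a lateral (CeL) and a capsular (CeC) part.

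The stretch that lines the pore is printed here for 5 of the members, because it shows how close the coding bases of one family are there. Each line gives 45 coding bases, 5′ to 3′, from the GRCm39 genome with GENCODE M39 exons, and the capitals mark the bases that encode the selectivity filter. For Cacna1g and Cacna1h this is the filter of the first of their repeats.
Cacna1g (chr11:94352776-94352985, minus strand, across exons 6 and 7): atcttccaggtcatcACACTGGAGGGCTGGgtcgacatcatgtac
Cacna1h (chr17:25612542-25612711, minus strand, across exons 7 and 8): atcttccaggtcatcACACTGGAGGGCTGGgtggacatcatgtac
Hcn2 (chr10:79564772-79564816, plus strand, exon 4): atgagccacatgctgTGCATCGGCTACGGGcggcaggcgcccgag
Hcn3 (chr3:89058298-89058342, minus strand, exon 4): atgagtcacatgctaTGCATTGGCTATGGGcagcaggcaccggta
Hcn4 (chr9:58762853-58762897, plus strand, exon 4): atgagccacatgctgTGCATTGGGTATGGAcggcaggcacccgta

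Cacna1g and Cacna1h were equal at 44 of these 45 bases. Among the HCN genes 36 to 39 bases were equal. The longest run of bases shared by the canonical transcripts was 41 to 68 bases between T-type genes and 32 or 33 between HCN genes. Whether reads of one gene were counted for another was not tested. The genes lie on 6 chromosomes (3, 9, 10, 11, 15 and 17), Hcn3 is the shortest (14.2 kb) and Cacna1i the longest (111 kb), and no member overlaps another gene on its own strand. Hcn3 overlaps Pklr and Cacna1h overlaps Tpsg1 on the opposite strand.

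Classes of nuclei were gated on raw UMIs of marker genes alone, with no member gene used, and nuclei that passed several gates (1001) or none (1793) were left out, as were 260 basolateral interneurons. The 1999 nuclei with 1 gate fell into 11 classes. Taken as CeM classes, after the placement of the like-named clusters in the study, were Il1rapl2/Tafa1 with 202 nuclei, Vdr with 54, Rai14 with 105, Tac1 with 109 and Dlk1 with 163. Taken as CeL were Prkcd with 258, Sst with 169 and Dnah5 with 169, and as CeC Calcrl with 100. The study has no cluster named by Dnah5. That gate was taken for its CeL NTS/Tac2 cluster, and Nts (61.5 CPM) and Tac2 (137 CPM) were highest in it. Foxp2 (137), which marks intercalated cells, and Rarb (533), which marks the amygdalostriatal area, lie outside the CeA. The Rarb gate was also the highest in Pde1c (540 CPM, against a mean of 96.0 in the other gates). The study uses that gene to name another area outside the CeA (IPAC), so the gate may hold cells of both areas. Vdr had 5 to 18 nuclei per library and is described without a test, while the other 10 gates had at least 10 in every library. Further markers were fixed for each class. For most classes all of them had that class among their 2 highest gates (3 of 3 for Il1rapl2/Tafa1, 2 of 2 for Prkcd, 4 of 4 for Dnah5). Rai14, Dlk1 and Sst had 2 of 3. In Rai14 the miss was Drd2 (71.9 CPM), with which the study also marks that cluster, and which was higher in Rarb (245) and Calcrl (81.7). The weakest gate was Tac1 with 1 of 4. That gate is therefore called by its gating gene only, and its place in the CeM rests on that gene. The study's cluster is marked by Tac1 and Sst, but nuclei that also passed the Sst gate were left out here. Sst was at 16.5 CPM in the Tac1 gate, against 269 in the Sst gate, so the Tac1 gate may differ from that cluster. The study also found Prkcd neurons outside their own cluster, mostly in its Calcrl cluster of the CeC. Nuclei that passed both of these gates were left out here, and the share of CeC cells in the Prkcd gate was not tested.

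In the plot of levels by gate and library, Cacna1g spanned the widest range of the 4 members with enough UMIs to be tested. Levels are the UMIs of a gene summed over a gate's nuclei in a library, divided by all UMIs there and given as CPM, and means are over the 5 libraries with their SD. A level is compared between gates but not between genes, because how well each gene's RNA was captured was not measured. The ratio of the highest to the lowest mean of the 10 tested gates was 39.3 for Cacna1g (59.6 without fed 3), 7.07 for Cacna1i, 2.00 for Cacna1h and 1.83 for Hcn2.

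**Figure D1:**
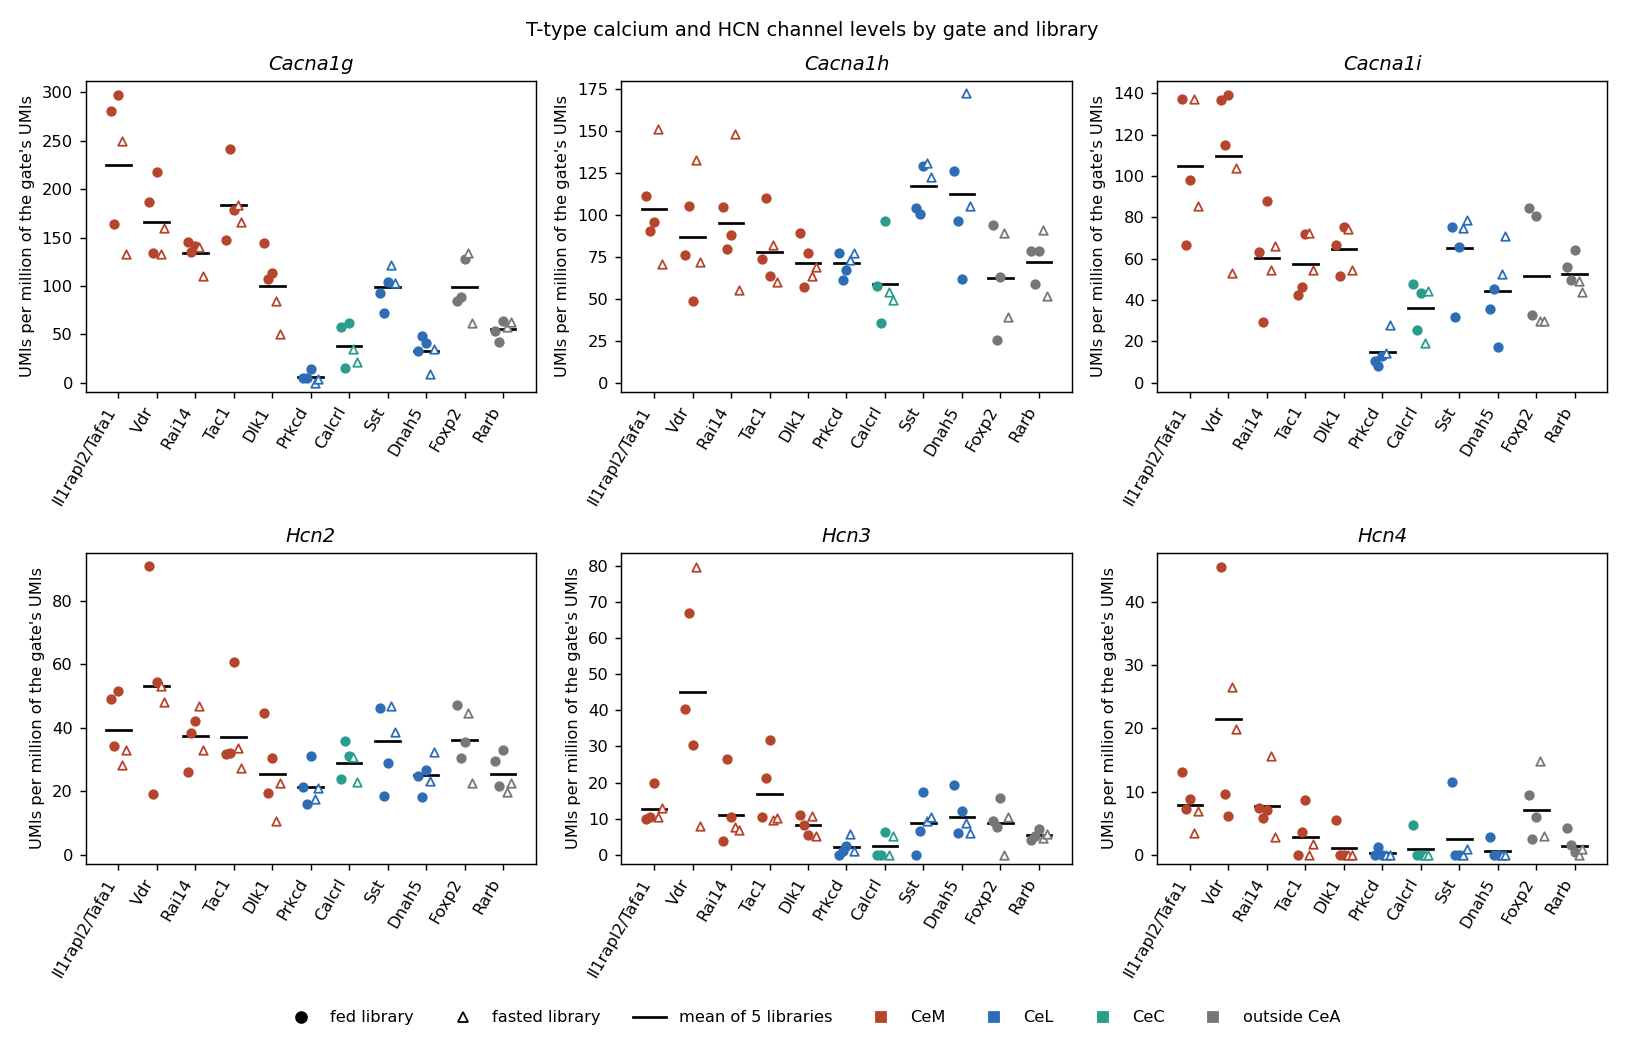
Level of each member (CPM, one panel per gene with its own linear scale) in the 11 gates, with a circle for each fed and a triangle for each fasted library, a bar at the mean and colors for the subregion. Cacna1g was at 225 ± 72.6 CPM in Il1rapl2/Tafa1 and at 5.72 ± 5.43 CPM in Prkcd (SD, n = 5), with no overlap between the libraries of these gates, whereas the Cacna1h points of most gates overlap.

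Cacna1g encodes the T-type subunit known for burst firing of thalamic relay neurons. In Il1rapl2/Tafa1 it was at 281, 164, 297, 249.8 and 133 CPM in fed 1, fed 2, fed 3, fasted 1 and fasted 2. In Tac1 the values in the same order were 148, 241, 179, 183 and 166 CPM, and in Rai14 they were 145, 135, 141, 141 and 110.1 CPM. The values of Il1rapl2/Tafa1 overlapped those of Tac1 and of Rai14. Every Tac1 value was above every Rai14 value, narrowly at the closest (148 and 145 CPM). Both libraries of replicate 2 were the lowest of the 5 in Il1rapl2/Tafa1. Vdr, also placed in the CeM, had 187, 134, 218, 133 and 159.8 CPM.

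At the other end, Cacna1g was nearly undetected in nuclei of the Prkcd gate, taken as CeL. It was at 5.31, 4.60, 14.7, 0 and 3.98 CPM there, with 28 UMIs in all, against 739 in Il1rapl2/Tafa1. The 0 of fasted 1 stands for no UMI in 342724, which allows up to 8.75 CPM (3 counts, counting error only). Dnah5 (33.0, 48.3, 41.5, 8.77 and 34.5 CPM) and Calcrl (57.4, 15.3, 62.2, 34.7 and 21.2 CPM) were also low, with values that overlapped each other but not those of Il1rapl2/Tafa1. Between the ends lay Dlk1 (50.1 to 145), Foxp2 (99.5 ± 30.9), Sst (98.7 ± 18.2) and Rarb (55.8 ± 8.95 CPM). The Sst gate, although placed in the CeL, thus lay within the range of Dlk1 in the CeM. The study also found Sst-positive cells in the CeM, and their share of this gate was not tested. Excitatory nuclei had 241 ± 85.5 CPM, astrocytes 15.9 ± 13.7 and oligodendrocytes 20.9 ± 12.4 (SD, n = 5).

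Each gate was tested against the mean of the other 9 tested gates with the library as a block (edgeR quasi-likelihood test, Benjamini-Hochberg adjusted over 7355 genes, adjusted p under 0.05). Hcn3 and Hcn4 had too few UMIs for this test, which left 40 tests of 4 members, of which 14 passed. In Il1rapl2/Tafa1 3 of the 4 members passed, against 21.2% of all genes tested, and in Prkcd also 3, against 36.2%. In Sst 2 members passed (10.8% of all genes), in Dnah5 2 (21.1%), and 1 each in Rai14 (14.3%), Tac1 (11.5%), Calcrl (16.1%) and Foxp2 (15.6%). In Dlk1 (7.91%) and Rarb (22%) none of the 4 did.

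Cacna1g took 7 of the 14 calls. It was higher in Il1rapl2/Tafa1 by 1.78 ± 0.14 (log2, SE), in Tac1 by 1.58 ± 0.17 and in Rai14 by 1.09 ± 0.18. It was lower in Prkcd (-3.64 ± 0.28), Dnah5 (-1.16 ± 0.23) and Calcrl (-0.97 ± 0.26, adjusted p = 0.0052). Without fed 3, which held 18 of the 28 Cacna1g UMIs of Prkcd, the difference in Prkcd was -4.34 and was called as well. In Calcrl the difference was -0.62 (adjusted p = 0.147) when every gate asked for 1 more UMI. A seventh difference, in Sst (0.61 ± 0.17, adjusted p = 0.0123), did not hold without fasted 1 (0.53, adjusted p = 0.0561), without fasted 2 (0.40, adjusted p = 0.246), with 1 more UMI (0.46, adjusted p = 0.162) or with the Vdr gate in the fit (0.46, adjusted p = 0.0667).

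**Figure D2:**
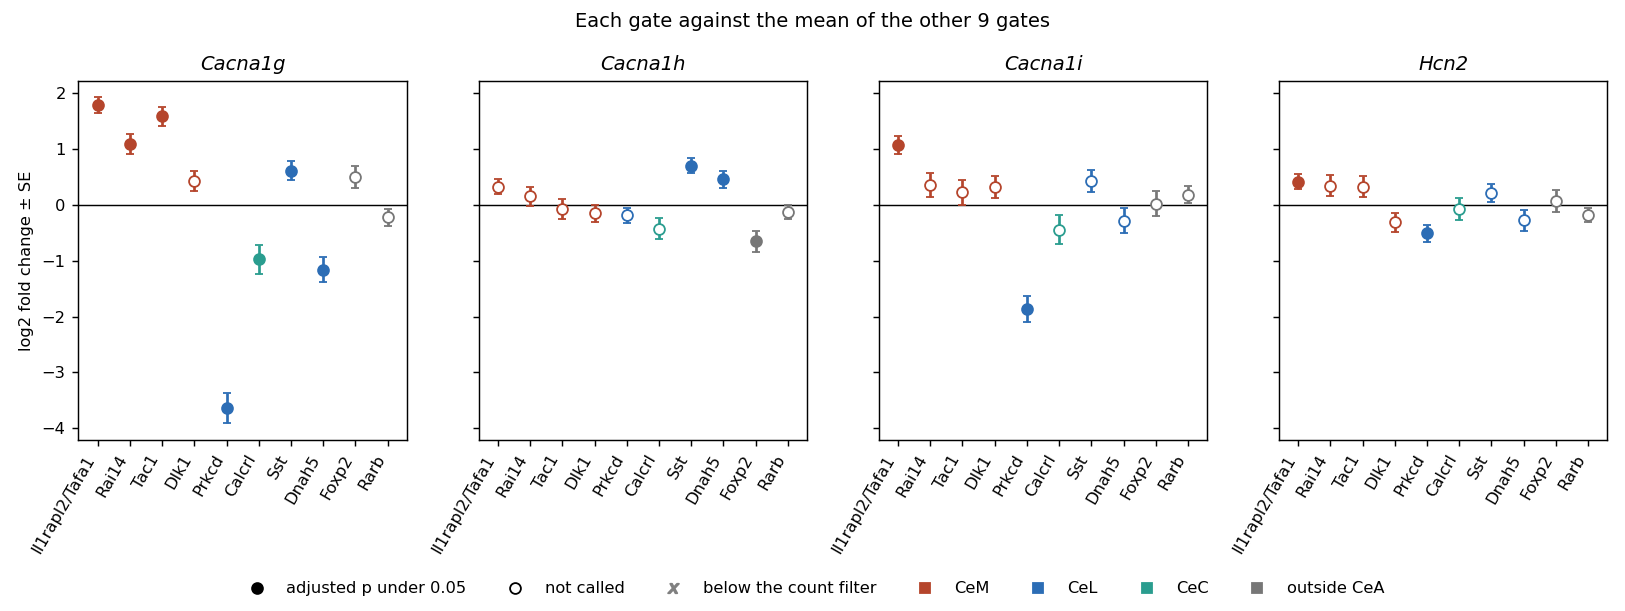
Difference of each gate from the mean of the other 9 (log2, with SE bars) for the 4 tested members, with filled symbols where the adjusted p was under 0.05. Cacna1g ran from 1.78 in Il1rapl2/Tafa1 down to -3.64 in Prkcd, and Cacna1i from 1.06 to -1.86 in the same gates.

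In the 45 pairs of tested gates, Cacna1g differed in 33, Cacna1h in 14, Cacna1i in 14 and Hcn2 in 7, where 17.5% of all gene tests over these pairs passed. With the gates put in the order of their means, only a few neighbours passed the test. For Cacna1g these were Sst above Rarb (0.75 ± 0.21, adjusted p = 0.00771, 14.8% of all genes called) and Dnah5 above Prkcd (2.23 ± 0.40, adjusted p = 1.61e-05, 24.9% called). Tac1 and Rai14, whose values did not overlap, were 0.44 ± 0.22 apart and did not pass (adjusted p = 0.368, 263 of 7355 genes called). The highest gates, Il1rapl2/Tafa1 and Tac1, were 0.18 ± 0.19 apart (adjusted p = 0.852, 1.52% called, the lowest share of any pair). Whether these gates hold different cell types was not tested. For Cacna1i it was Calcrl above Prkcd (1.27 ± 0.36, adjusted p = 0.00874, 16.6% called), and for Cacna1h and Hcn2 no neighbours passed.

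Cacna1h, a T-type subunit known from sensory neurons as well as the brain, was flatter and had another order of gates. It was highest in Sst, with 104, 100.3, 129, 131 and 123 CPM, and in Dnah5, with 126, 96.6, 61.6, 172 and 106 CPM. The Dnah5 values spread widely, and fed 2 and fed 3 were below every Sst value. Prkcd, where Cacna1g was nearly undetected, had 77.1, 61.0, 67.0, 72.9 and 77.6 CPM of Cacna1h, which lay among the other gates. Il1rapl2/Tafa1 had 104 ± 30.2 CPM, Rai14 95.1 ± 34.7, Vdr 86.9 ± 32.6, Tac1 77.9 ± 20.0, Rarb 71.7 ± 16.1, Dlk1 71.2 ± 12.4 and Calcrl 58.6 ± 22.6.

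Against the mean of the other gates, Cacna1h was higher in Sst by 0.70 ± 0.14 (log2). A smaller difference in Dnah5 (0.45 ± 0.14, adjusted p = 0.0174) did not hold without fed 1 (adjusted p = 0.0753), fasted 1 (0.177) or fasted 2 (0.113). In Foxp2 it was lower (94.2, 25.3, 63.1, 89.5 and 38.99 CPM, -0.66 ± 0.20, adjusted p = 0.0135), but the replicates 2 were the lowest, and the call was lost without fed 2 (adjusted p = 0.175), without fasted 2 (0.106) and with 1 more UMI per gate (0.0512).

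Cacna1i, known from the reticular nucleus of the thalamus, followed Cacna1g in its extremes. In Il1rapl2/Tafa1 it was at 137, 66.5, 97.9, 137 and 85.5 CPM, and in Prkcd at 10.6, 8.05, 13.1, 14.6 and 27.8 CPM. The groups of values did not overlap, and the difference from the mean of the other gates was 1.06 ± 0.16 in the first and -1.86 ± 0.23 in the second (log2). Vdr had 109.6 ± 34.9 CPM over 54 nuclei. The other gates lay closer together, from 65.2 ± 19.3 in Sst and 64.5 ± 11.1 in Dlk1 to 36.1 ± 12.8 CPM in Calcrl, and none passed.

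With the 3 T-type genes added up, gates differed both in the total and in its makeup. Il1rapl2/Tafa1 had a summed level of 434 ± 119 CPM and Prkcd 91.7 ± 12.9. Of the T-type UMIs, Cacna1g held 57.4 ± 2.55% in Tac1 and 51.4 ± 5.93% in Il1rapl2/Tafa1, against 35.0 ± 1.30% in Sst, 27.3 ± 7.60% in Calcrl, 19.4 ± 11.4% in Dnah5 and 6.22 ± 5.75% in Prkcd. Cacna1h held 78.1 ± 6.69% in Prkcd and 58.1 ± 10.7% in Dnah5, but 24.2 ± 3.98% in Il1rapl2/Tafa1. These shares were not tested on their own. The capture of each gene's RNA was not measured, so they are read between gates and not between genes.

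**Figure D3:**
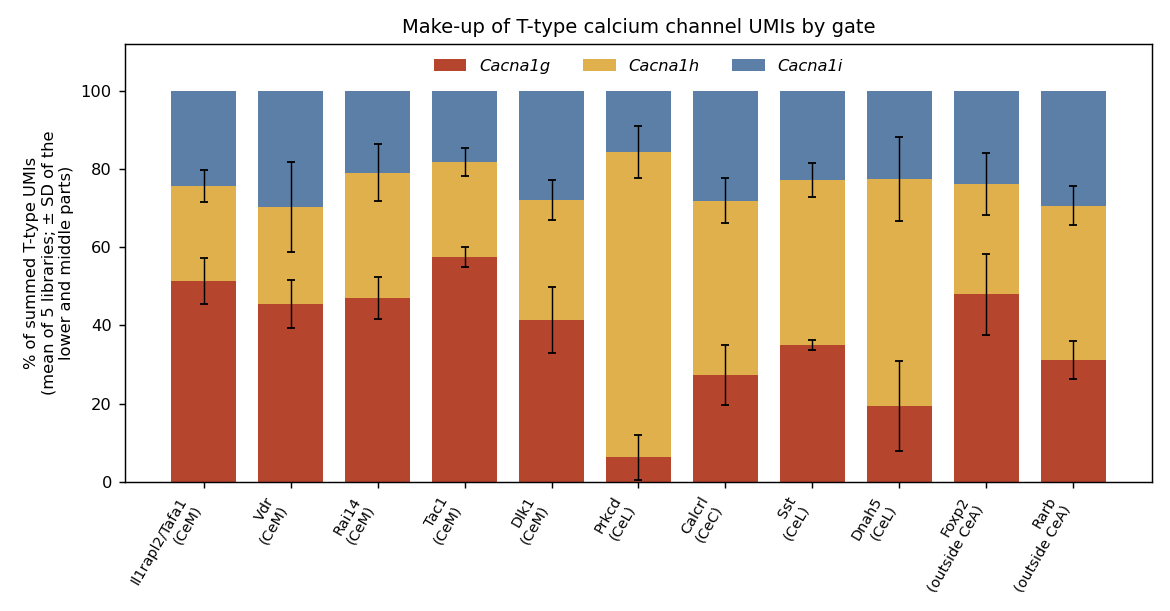
Makeup of the T-type UMIs in each gate (percent from Cacna1g, Cacna1h and Cacna1i, mean of the 5 libraries, with the SD of the lower and middle parts). Cacna1g falls from 57.4% in Tac1 to 6.22% in Prkcd, where Cacna1h makes up 78.1%.

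Hcn2, a widely expressed HCN subunit of the brain, had the narrowest range of means over the 10 tested gates. In Il1rapl2/Tafa1 it was at 49.0, 34.3, 51.7, 28.2 and 32.8 CPM and in Prkcd at 21.3, 16.1, 31.0, 17.5 and 20.9 CPM. The ranges overlapped only between fed 3 of Prkcd and fasted 1 of Il1rapl2/Tafa1. Vdr had the highest mean (53.1 ± 25.6 CPM), and the others were between 25.1 ± 5.22 in Dnah5 and 37.3 ± 8.07 CPM in Rai14. It was lower in Prkcd than in the mean of the other gates (-0.51 ± 0.16, adjusted p = 0.0075). The difference of 0.42 ± 0.14 in Il1rapl2/Tafa1 (adjusted p = 0.0257) was lost without fed 1 (adjusted p = 0.0734), fed 2 (0.0860) or fed 3 (0.142), without the filter on low counts (0.0679) and with Vdr in the fit (0.101).

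Hcn3, whose channel responds little to cyclic AMP, was sparse. The small Vdr gate had the highest level, with 40.5, 67.0, 30.3, 79.6 and 7.99 CPM from 25 UMIs, against 16.7 ± 9.70 CPM in Tac1 and 12.7 ± 4.14 in Il1rapl2/Tafa1. In Prkcd 7 UMIs gave 2.09 ± 2.27 CPM, and in Calcrl 5 UMIs gave 2.30. Hcn4, the main pacemaker subunit of the heart, was sparser still. It had 45.5, 9.58, 6.06, 26.5 and 20.0 CPM in Vdr (17 UMIs), 7.91 ± 3.47 in Il1rapl2/Tafa1 (28 UMIs) and 7.75 ± 4.77 in Rai14 (10 UMIs), while Dlk1, Calcrl, Dnah5 and Prkcd had 1 UMI each. With no filter on low counts, Hcn4 was higher in Il1rapl2/Tafa1 (2.47 ± 0.50, adjusted p = 1.7e-05) and Rai14 (2.03 ± 0.66, adjusted p = 0.0329). In the same fit Hcn3 was higher in Tac1 (1.24 ± 0.36, adjusted p = 0.0134) and Il1rapl2/Tafa1 (0.87 ± 0.29, adjusted p = 0.0261), and lower in Prkcd (-2.25 ± 0.46, adjusted p = 1.0e-05). These fitted differences of genes with a few UMIs depend on the prior count.

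The 4 tested CeM gates (Il1rapl2/Tafa1, Rai14, Tac1 and Dlk1) were then set against the 4 of CeL and CeC (Prkcd, Calcrl, Sst and Dnah5). This gives each member's difference between the averages of these gates. The p-value does not measure how gates of one subregion differ among themselves. The study itself used Cacna1g to place 4 of its clusters in the CeM, so its difference of 2.26 ± 0.14 (log2, SE) is a description and supports no placement. Leaving Cacna1g aside, Cacna1i and Hcn2 passed and Cacna1h did not, where 35.8% of all 7355 genes passed. Cacna1i and Hcn2 ran with Cacna1g over the 10 tested gates (Pearson r of 0.94 and 0.80). What part the placement by Cacna1g has in their differences was not tested. Cacna1i was higher in the average of the CeM gates by 0.93 ± 0.15 (adjusted p = 5.66e-07) and lay between 0.76 and 1.24 in every alternative run. It was not higher in each CeM gate. Sst of the CeL (65.2 CPM) had a higher mean than Dlk1 (64.5), Rai14 (60.3) and Tac1 (57.5), while Dnah5, Calcrl and Prkcd were below every CeM gate. Cacna1h differed by -0.06 ± 0.11 (adjusted p = 0.689), and by 0.063 without fasted 2.

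Hcn2 was higher in the CeM gates by 0.32 ± 0.12 (adjusted p = 0.0311). This call was lost without fed 1 (0.31, adjusted p = 0.0579), fed 2 (0.28, 0.111) or fed 3 (0.23, 0.255), without the filter (0.33, 0.0923) and with 1 more UMI per gate (0.26, 0.201). In Hcn2 means, Sst of the CeL (35.8 CPM) and Calcrl of the CeC (28.9) were above Dlk1 of the CeM (25.5). The other tested CeM gates were above every CeL and CeC gate. Hcn3 and Hcn4 were below the filter, and without it they were at 1.16 ± 0.27 (adjusted p = 2.47e-04) and 2.06 ± 0.81 (adjusted p = 0.0618). Hcn3 passed the filter without fed 1 (1.17), without fasted 1 (1.21) and with Vdr in the fit (1.47). The filter lets a gene in by its highest gate sums. The highest Hcn3 means were in Vdr, Tac1, Il1rapl2/Tafa1 and Rai14, all taken as CeM. These values are therefore descriptions and give no separate support for a difference.

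**Figure D4:**
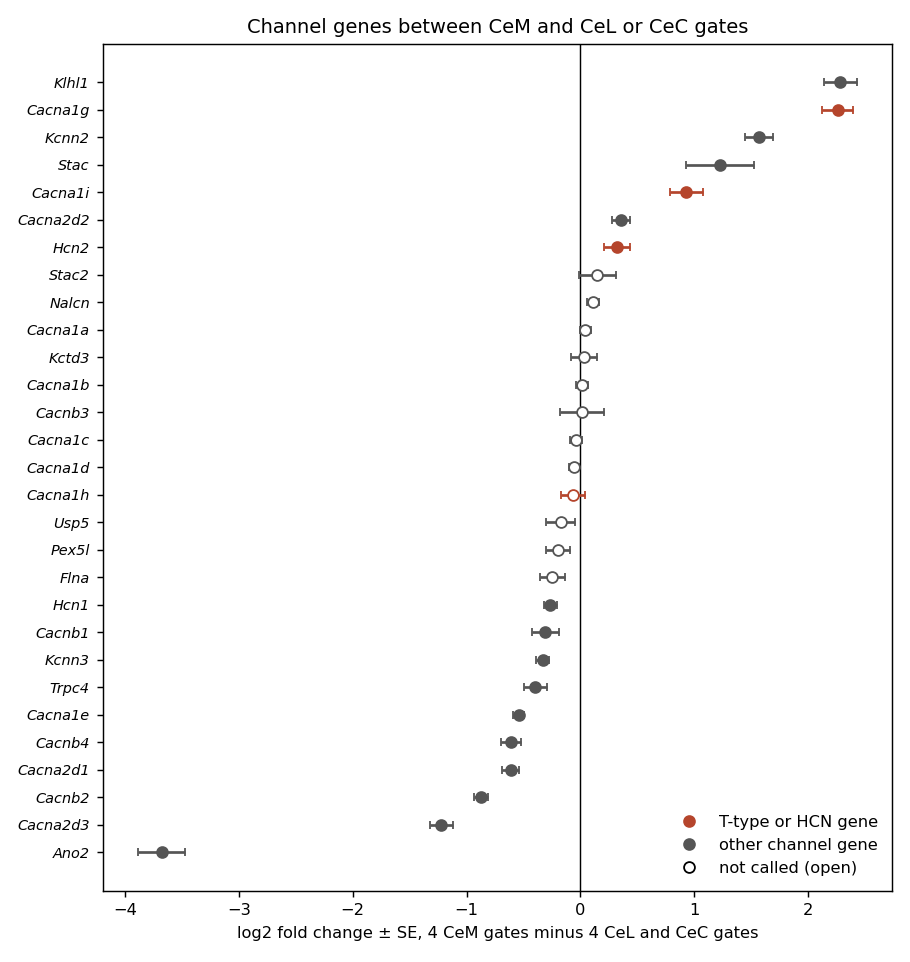
Difference between the 4 CeM gates and the 4 CeL and CeC gates (log2, with SE bars) for the 4 tested members and the tested genes of the channel list, with filled symbols where the adjusted p was under 0.05. Cacna1g (2.26) and Klhl1 (2.28) lie farthest to the CeM side, and Ano2 (-3.68) farthest to the other.

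Single nuclei showed the same gates apart. To remove the effect of depth, every nucleus was thinned to 4000 UMIs, and shallower ones were left out. A Cacna1g UMI was then found in 108 of 201 Il1rapl2/Tafa1 nuclei, 54.3 ± 12.7% over the libraries, and in 7 of 257 Prkcd nuclei, 2.49 ± 2.48% (exact 95% interval 1.10% to 5.53% of all 257, counting error only). Without thinning the shares were 91.1% and 7.2%, at medians of 16717.5 and 13697 UMIs per nucleus. Free RNA can give UMIs in nuclei that do not express a gene, and its level was not measured here. Astrocytes, thinned alike from a median of 4734 UMIs, had a share of 7.22 ± 4.76%, and the Prkcd share, which was below it, is not read as expression.

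Cacna1h was found in 23.5 ± 8.24% of Prkcd nuclei and 38.1 ± 12.6% of Il1rapl2/Tafa1 nuclei at the same depth, against 14.2 ± 9.20% of astrocytes. Cacna1i was found in 33.0 ± 14.5% of Il1rapl2/Tafa1 nuclei, 5.16 ± 2.20% of Prkcd nuclei and 0 of 83 astrocytes, which allows a share of up to 3.61%. Hcn2 was in 13.0 ± 3.64% of Il1rapl2/Tafa1 and 8.76 ± 2.94% of Prkcd nuclei. An Hcn3 UMI was in 12 of 52 Vdr nuclei, against 1 of 257 in Prkcd and 1 of 83 in astrocytes. Hcn4 was in 4 of 52 Vdr nuclei, but in 0 of 257 Prkcd nuclei (up to 1.17%) and 0 of 532 Rarb nuclei (up to 0.564%). Thinned to 8000 UMIs, 38.7% of 173 Il1rapl2/Tafa1 nuclei had UMIs of both Cacna1g and Cacna1h, beside a product of their single shares of 38.2%.

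Over the 10 tested gates, the mean log2 level of Cacna1g ran most closely with that of Cacna1i (Pearson r = 0.94), then with Hcn2 (0.80), Hcn3 (0.77) and Hcn4 (0.67), and least with Cacna1h (0.24). All values of a gate come from the same 5 libraries, and 1 gate (Prkcd) is low in most members, so r is given as a description. Hcn4 had 1 UMI in each of Dlk1, Calcrl, Dnah5 and Prkcd, and Hcn3 had 5 in Calcrl and 7 in Prkcd. The r of these 2 genes thus depends on values near the floor and on the pseudocount. Among the 7771 genes of at least 20 CPM in a gate, those most like Cacna1g were Slc6a7, a proline transporter (0.99), Nol4l (0.99) and Cntn2, a cell adhesion protein (0.98). Cacna1h was most like Trpc5, a cation channel (0.93), Bend7 (0.92) and Rtl4 (0.92). Cacna1i was most like Srebf2, a regulator of sterol synthesis (0.94), Cacna1g (0.94) and Kif26b (0.94), and Hcn2 was most like Luzp2 (0.92), Fhod3 (0.91) and the kinase Mapk8 (0.91).

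The list of 28 other genes of these currents held other calcium and HCN pore subunits, their partners and currents that shape bursts. In the contrast of CeM with CeL and CeC, 14 of its 25 tested genes passed, 4 higher and 10 lower, where 35.8% of all genes did, with a median of -0.17 against -0.00087 over all genes tested (log2). Klhl1, an actin-binding protein known to raise T-type current, was higher by 2.28 ± 0.14, Kcnn2, a calcium-activated potassium channel, by 1.57 ± 0.12 and Stac, an adaptor of calcium channels, by 1.22 ± 0.30. Ano2, a calcium-activated chloride channel, was lower, with a difference of -3.68 ± 0.20, as was Cacna2d3, an auxiliary calcium channel subunit, with -1.22 ± 0.10. By kind, 2 of 6 other pore subunits passed (both lower), 8 of 11 calcium channel partners (3 higher), 0 of 3 HCN partners and 4 of 5 burst currents (1 higher).

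The Prkcd gate, low in both Cacna1g and Cacna1i, had 17 of the 25 list genes past the threshold, 12 higher and 5 lower than in the mean of the other gates, where 36.2% of all genes passed. Klhl1 (-2.04), Stac2 (-1.47) and Kcnn2 (-1.27) were lower there, and Ano2 (1.73) and Cacna2d3 (1.65) higher (log2). In Il1rapl2/Tafa1 12 of the 25 passed, 4 higher and 8 lower, where 21.2% of all genes did. There Stac (1.40), Klhl1 (1.18) and Kcnn2 (1.00) were higher, and Cacna2d3 (-2.00) and Ano2 (-2.00) were lower.

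The last comparison asked whether fasting changed the level of these channels. The sums over all inhibitory nuclei take in the basolateral interneurons and the nuclei of areas outside the CeA. Their makeup differed between libraries, with 10 Dlk1 nuclei among 997 in fasted 1 and 71 among 1368 in fasted 2. These levels thus mix the makeup with the level in each class, and the part of the makeup was not tested. In all inhibitory nuclei of a library, Cacna1g was at 105, 83.7 and 117 CPM in fed 1, fed 2 and fed 3 and at 109 and 74.0 CPM in fasted 1 and fasted 2, so that the groups overlapped. Cacna1h (77.9, 66.3 and 75.6 fed, 102 and 68.3 fasted), Cacna1i (59.8, 40.0 and 58.7 fed, 62.5 and 52.8 fasted) and Hcn2 (35.3, 27.4 and 35.6 fed, 28.9 and 28.7 fasted) overlapped as well. Hcn3 was lower in both fasted libraries (8.70 and 9.27 CPM) than in the 3 fed ones (9.53, 10.8 and 10.3), by less than 1 CPM at the closest values. Hcn4 was at 5.82, 2.96 and 2.32 CPM in the fed and 3.40 and 3.06 in the fasted libraries.

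None of the 6 members passed in this comparison of 3 fed with 2 fasted libraries (edgeR quasi-likelihood test, adjusted p = 1.00 for each), and none had an unadjusted p under 0.05. The test had no term for the preparation batch, and a run with that term is given at the end. Of all 13598 genes 0 passed (0%), 711 had an unadjusted p under 0.05, and DESeq2 called 99 and the likelihood ratio test 161, with no member among them. The differences of fasted from fed were -0.18 ± 0.21 (log2, SE) for Cacna1g, 0.20 ± 0.19 for Cacna1h, 0.10 ± 0.19 for Cacna1i, -0.21 ± 0.15 for Hcn2, -0.21 ± 0.17 for Hcn3 and -0.16 ± 0.40 for Hcn4. Within the preparation batches, Cacna1g differed by 0.046 in replicates 1 and -0.18 in replicates 2, and Cacna1i by 0.063 and 0.39.

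Within the 10 tested gates none of 37 tests of a member passed (edgeR quasi-likelihood test), nor with DESeq2 or the likelihood ratio test, and 4 had an unadjusted p under 0.05. Of all genes, 0.315% passed in Sst, 0.0429% in Rarb, 0.0385% in Rai14, 0.0379% in Tac1, 0.0353% in Prkcd, 0.0341% in Dnah5, 0.0231% in Il1rapl2/Tafa1 and 0% in Dlk1, Calcrl and Foxp2. An unadjusted p under 0.05 was found for 284 of 7433 genes in Dlk1, 390 of 5870 in Dnah5 and 557 of 8495 in Prkcd. In Foxp2 these were 208 of 6342, in Sst 439 of 6974, in Calcrl 298 of 4842 and in Rarb 424 of 9325. In Il1rapl2/Tafa1 they were 335 of 8658, in Rai14 231 of 5196 and in Tac1 215 of 5276. Cacna1g in Dlk1 was at 145, 107 and 113 CPM in the fed and 84.9 and 50.1 in the fasted libraries, which did not overlap (-1.09 ± 0.32, adjusted p = 0.651), and the difference was -0.76 in replicates 1 and -1.08 in replicates 2. The other 3 were of Cacna1i. It was higher in the fasted libraries in Dnah5 (35.7, 45.3 and 17.4 fed, 52.6 and 71.0 CPM fasted, 1.07 ± 0.40, adjusted p = 0.586) and in Prkcd (10.6, 8.05 and 13.1 fed, 14.6 and 27.8 CPM fasted, 1.07 ± 0.46, adjusted p = 0.689). In Foxp2 it was lower (84.7, 32.9 and 80.9 fed, 29.8 and 30.0 CPM fasted, -1.10 ± 0.48, adjusted p = 0.999), with fed 2 close to the fasted values. Fasted 1 held 10 nuclei in Foxp2 and 10 in Dlk1, with 67032 and 94182 UMIs over all genes, so its levels in these gates rest on few UMIs. Of the 239 tests of other list genes in these gates, over 22 to 25 of the 28 genes in each, 0 passed and 26 had an unadjusted p under 0.05.

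**Figure D5:**
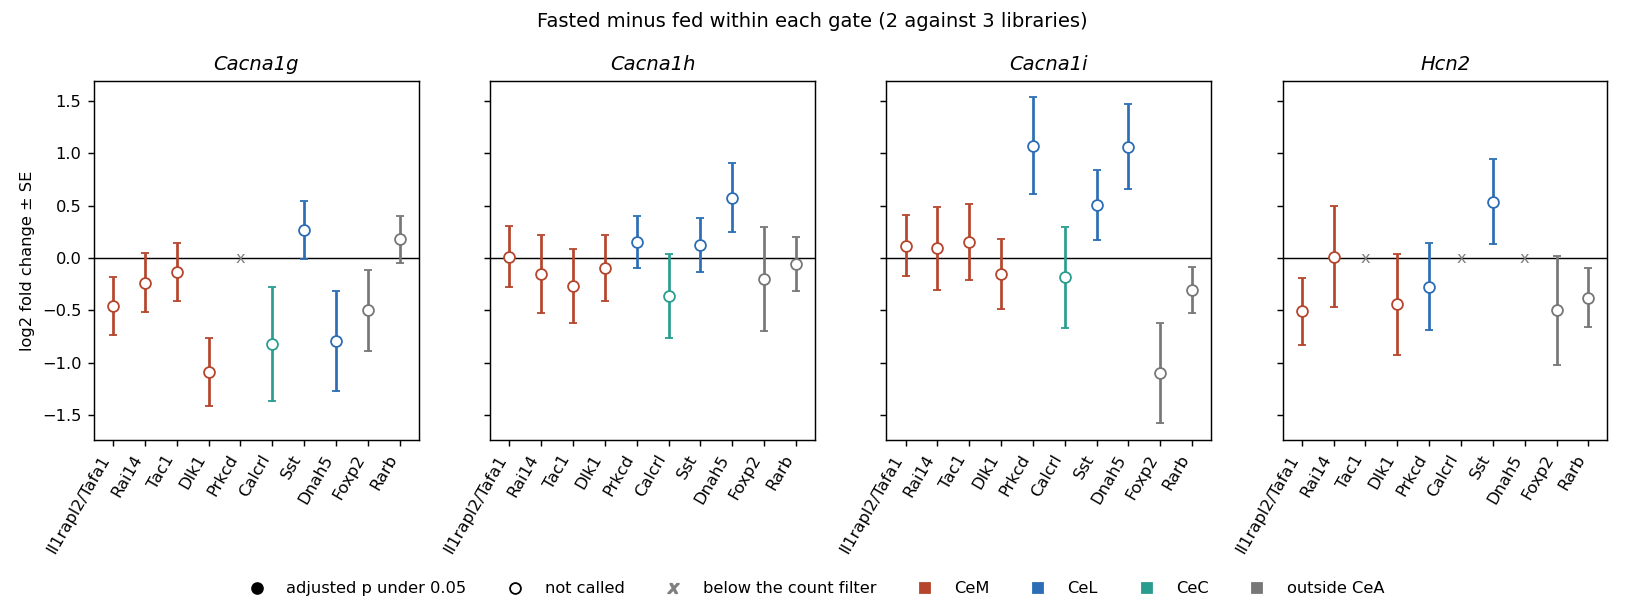
Difference of fasted from fed libraries within each tested gate (log2, with SE bars) for Cacna1g, Cacna1h, Cacna1i and Hcn2, with open symbols where the adjusted p was not under 0.05 and crosses where a gene had too few UMIs. All symbols are open, and the farthest from 0 are Cacna1i in Foxp2 (-1.10) and Cacna1g in Dlk1 (-1.09). Both gates had 10 nuclei in fasted 1.

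Whether the effect of fasting differed between gates was tested as an interaction. None of the 4 tested members passed for a difference between any gates (0% of 7355 genes called), with an unadjusted p of 0.0412 and an adjusted p of 1.00 for Cacna1g and 0.00495 and 0.675 for Cacna1i. For CeM against CeL and CeC, 0.0272% of genes were called and no member. There the fasting effect on Cacna1i in the CeM gates less that in the CeL and CeC gates was -0.65 ± 0.25 (log2, unadjusted p = 0.0132, adjusted p = 0.727), and 0.053 without fasted 2.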

How the data were processed

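Nuclei of the mouse CeA were profiled with the 10x Chromium 3′ chemistry (version 3.1) in 5 libraries (3 fed, 2 fasted). The deposited values are UMI counts per gene and barcode that the authors made with Cell Ranger (5.0.0 per the file headers) on GRCm39 with Cre and mCherry added and intronic reads included. The submitters' processing notes name Cell Ranger 2.1.1 and mm10 instead, and the annotation used here (GENCODE M39) held 99.3% of the gene IDs. No count was changed before the analysis, and all 22532 genes were kept.

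The members, gates and gene lists were chosen with earlier results of these data known. Named genes were the 6 members in every comparison, up to 5 list genes with the largest change among those past the threshold, and the 3 genes most like each member of at least 20 CPM. Gate minimums (1 to 8 UMIs) were set on marker genes alone. UMIs were summed per gate and library, with 67032 to 2496157 UMIs in each sum of a tested gate, and levels on the log2 scale had a pseudocount of 1. Sums were tested with edgeR 4.0.16 (R 4.3.3; quasi-likelihood test, TMM, filterByExpr, adjusted p 0.05), and tests of gates had the library as a block. The planned contrast held 5 CeM gates, of which Vdr had too few nuclei. Scrublet in scanpy 1.11.5 called 72 doublets (1.01%), which were kept. Alternatives were DESeq2 1.42.0, edgeR's likelihood ratio test, other scaling, no filter, gate minimums plus 1 UMI, at least 1500 genes per nucleus, doublets removed, each library left out and the replicate block. The scripts were tested on simulated data. Standard errors were taken as the difference over the square root of F.

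Replicate numbers pair fed and fasted libraries, since the study's supplement places replicates of one number in one preparation batch. Deviations from the group means correlated over genes at 0.322 (replicates 1) and 0.442 (replicates 2) in all inhibitory nuclei, and at 0.0603 to 0.174 and 0.0900 to 0.300 within gates. The values of replicates 1 and 2 are not separate checks, because the deviations of 2 fasted libraries from their mean mirror each other. Fed 1 and fasted 1 were also the shallowest libraries, so a shared batch and a shared depth cannot be told apart here. Libraries pool mice, so p-values of the fasting tests measure the spread between pools, which share batches. In the tests of gates, subregions and the interaction, the block removes each library's own level. Their p-values measure how differences between gates vary over the libraries, with the gate sums of a library treated as independent. One sequence is not reported here.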

Additional observations from a re-analysis of the deposited data

How the results depend on the processing

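In the gate contrasts Cacna1g, Cacna1h, Cacna1i and Hcn2 together had 12 to 16 calls over the alternatives, against 14. Hcn3 passed the filter in some of them and added 3 calls without fed 1, 3 without fasted 1 and 2 with Vdr in the fit, and with no filter on low counts Hcn3 added 3 and Hcn4 added 2. Where Hcn3 passed the filter, it was let in by its highest gate sums, so those calls are descriptions. Cacna1g and Cacna1i kept their direction and call in Prkcd and Il1rapl2/Tafa1 under every alternative run. Of the values of the called differences under these alternatives, 166 kept the call, 16 lost it and none changed sign. With a library left out, Cacna1h ran from -0.13 to 0.063 in the subregion contrast.

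Fasting called no member in all inhibitory nuclei or in a gate under any alternative. With a library left out, its uncalled differences in all inhibitory nuclei changed sign for 4 members, from -0.53 to 0.12 for Cacna1g, from -0.17 to 0.50 for Cacna1h, from -0.070 to 0.27 for Cacna1i and from -0.43 to 0.25 for Hcn4, and the interaction of Cacna1i with the subregion ran from -0.92 to 0.053. Over all genes, the calls in all inhibitory nuclei were 0, against 140 with no filter, 161 with the likelihood ratio test, 99 with DESeq2, 1 with doublets removed and 0 to 27 with a library left out. Within gates the 37 calls became 395 with no filter, 273 with the likelihood ratio test and 22 to 157 with a library left out. The interaction called 2 genes, 308 with no filter (with 1 member, Cacna1i), 41 with the likelihood ratio test, 14 with DESeq2, and 0 with 1 more UMI per gate or with Vdr in the fit, which was chosen after seeing the data. The cause was not tested.

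With the replicate block, which pairs libraries of one preparation batch, 287 genes were called in all inhibitory nuclei and 460 within gates, but no member. Cacna1g in Dlk1 had an unadjusted p under 0.05 (edgeR quasi-likelihood test, -1.05, adjusted p = 0.391). So did Cacna1i in Prkcd (1.34, adjusted p = 0.373), in Sst (0.80, adjusted p = 0.495) and in all inhibitory nuclei (0.21, adjusted p = 0.452). The block changed no member's call.

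The share of Il1rapl2/Tafa1 nuclei with Cacna1g less that of Prkcd nuclei was 51.8 percentage points at 4000 UMIs, 35.7 at 2000, 74.8 at 8000 and 83.9 without thinning. Depth limits Hcn3 and Hcn4 most, with 1 to 28 UMIs per gate in many gates.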
